A study of Homo sapiens with 7 samples.

Results

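Of 68115 test sequences in a lentiviral reporter library, 366 were active in 1 orientation and low in the other, and these one-sided sequences are described here. They were chosen from replicate 1 alone. For each copy, S is the log2 of its share of all RNA counts over its share of all DNA counts in the same replicate. A member had 50 or more DNA counts in both copies, S of 0.6 or more in 1 orientation and S of -0.4 or less in the other. Forward-only members, active as the forward copy, numbered 268, which is 0.412% of the 65106 sequences with enough DNA in both copies. Reverse-only members numbered 98, or 0.151%.

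The assay ran in HepG2, an established human cell line. All libraries came from infected HepG2 cells, apart from the plasmid library that tied barcodes to elements, and no treatment or second cell type was included. Each oligonucleotide carried an element of 170 nucleotides with 15 nucleotides of flank at either end, separate amplifications made a forward and a reverse pool, and the pools were mixed in equal quantities. Per the labels' protocols, DNA and RNA were extracted after 48 hours of incubation in 3 replicates of 8 wells each, with 16 RNA columns per replicate. Nothing in the labels tells whether separate infections gave the replicates, so each p-value reflects variation among libraries that could be purely technical. DNA libraries held 34860651 to 44258011 counts and RNA libraries 108324310 to 114738370.

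In a lentiviral massively parallel reporter assay, candidate regulatory elements stand next to a minimal promoter and integrate into the genome, and a transcribed barcode reports how much RNA each integrated element yields. Enhancers are commonly described as acting in either orientation, whereas promoters direct transcription mainly one way. Cloning the same element both ways round therefore measures how far its reporter output depends on the direction in which it faces the minimal promoter. The element sequences and their genome positions were not analysed here, so members are known by their number, and forward and reverse refer to the reporter and not to a genome strand.

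In replicate 1, which chose the members, the active copy had a median S of 0.77 in both classes. The other copy had a median S of -0.57 for forward-only and -0.56 for reverse-only members. These values describe the choice and carry no test. Near the threshold for the active copy, forward-only Seq_31605 lay just inside at 0.6001 and Seq_59242 just outside at 0.5999. They parted in the replicates that did not take part in the choice. Seq_31605 had a forward S of 0.67 and 0.75 in replicates 2 and 3, and Seq_59242 had -0.35 and -0.59. The second pair at this threshold went the other way. Seq_17647, just inside at 0.6004, had 0.34 and 0.11, and Seq_44514, just outside at 0.5994, had 0.35 and 0.80. Near the threshold for the low copy, Seq_51492 lay just inside at -0.4003 and Seq_63478 just outside at -0.3978. In replicates 2 and 3 the reverse S was -0.35 and -0.64 in Seq_51492 and -0.40 and -0.45 in Seq_63478, so their order turned between replicates. For reverse-only members, Seq_6195 lay just inside the active threshold at 0.6045 and Seq_7634 just outside at 0.5991. Their reverse S in replicates 2 and 3 was 0.27 and 0.73 in Seq_6195 and 0.66 and 0.47 in Seq_7634, and the order again turned between replicates.

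Most forward-only members kept their direction in replicates 2 and 3, with a smaller gap. The forward copy had a median S of 0.62 in replicate 2 and 0.59 in replicate 3, and the reverse copy had a median S of -0.50 in both. Single members ranged widely: the forward S ran from -0.94 to 1.83 in replicate 2 and from -1.09 to 1.63 in replicate 3. Forward was above reverse in both replicates in 258 of 268 members, in a library that leaned toward forward as a whole. The median gap in S was 1.14 in replicate 2 and 1.11 in replicate 3, against 1.43 in the replicate that chose them.

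The orientation difference was tested as the interaction of molecule (RNA or DNA) with orientation in edgeR's quasi-likelihood test on replicates 2 and 3, and called at a Benjamini-Hochberg adjusted p below 0.05 over 66808 sequences. The forward and reverse counts of a library entered this test as separate samples, without a term for the library they shared. The values are log2 of forward over reverse activity. Of the 268 forward-only members, 220 (82.1%) were called forward, beside 16.4% of all sequences tested. A call with at least a 2-fold difference was made for 158 (59.0%), beside 2.94%. None was called in the opposite direction, and 48 were not called. Their median difference was 1.08 with quartiles of 0.80 and 1.38, where the median over all sequences tested was 0.19. The median standard error of a member's difference was 0.21. By sign alone, the difference was toward forward in 264 members, beside 64.8% of tested sequences 100 numbers away from a forward-only member. Differences of 1.5 or more were seen in 48 members and of 2 or more in 5, while 23 members fell below 0.5.

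Among reverse-only members the reverse copy had a median S of 0.59 in replicate 2 and 0.60 in replicate 3, and the forward copy a median of -0.34 in both. Reverse was above forward in both replicates in 83 of 98 members. One member, Seq_25337, had too few DNA counts in replicates 2 and 3 for the test. Of the 97 tested, 65 (67.0%) were called reverse by edgeR, beside 4.83% of all sequences tested. A call with at least a 2-fold difference was made for 43 (44.3%), beside 0.825%. The median difference toward reverse was 0.93 with quartiles of 0.56 and 1.23. By sign alone, the difference was toward reverse in 92 of the 97, beside 32.0% of tested sequences 100 numbers away from a reverse-only member. Because the median over all sequences lay 0.19 toward forward, a reverse difference of a given size lies farther from that median than a forward one. Tested against that median in place of 0, 191 forward-only and 70 reverse-only members were called in their own direction, beside 7.09% and 9.02% of all sequences. Whether the 2 classes differ in the share that was called was not tested.

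The rule joins 2 conditions, and each copy was therefore also tested apart as RNA over DNA. Of the 268 forward-only members, 246 had a forward copy called higher in RNA than in DNA by edgeR, beside 32.4% of all copies tested. Their reverse copies were called lower in 55 members, called higher in 10 and not called in 203, where 28.2% of all copies were called lower. The median S over all copies was -0.44 in replicate 2 and -0.42 in replicate 3, so a copy at the rule's -0.4 lay about at the library's middle. Accordingly, 159 of the 268 reverse copies lay at or below that median in replicate 2 and 161 in replicate 3. By the rule's own thresholds, the forward copy was at 0.6 or more in 142 members in replicate 2 and in 131 in replicate 3. The reverse copy was at -0.4 or less in 172 and 169. Under TMM, in most forward-only members the low copy thus did not differ detectably from the ordinary copy of the library.

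This split turned on the scaling. TMM scaling, which assumes that most copies do not differ, put the median of all copies at -0.05. With library totals alone, which put it at -0.45, 23.0% of all copies were called higher and 53.5% lower. On that scale 193 reverse copies of forward-only members were called lower and 0 higher (10 under TMM), and 208 forward copies were called higher. The difference between orientations is not touched by this choice, since both copies sit in the same libraries. For reverse-only members, 84 reverse copies were called higher (71 with library totals alone). Their forward copies were called lower in 11 and higher in 18 with TMM, and lower in 45 and higher in 5 with library totals alone.

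A strict one-sided pattern required an active copy called higher, another copy not called higher and a called orientation difference. It was met by 207 forward-only members (77.2%), beside 4.85% of all sequences tested. Among reverse-only members it was met by 58 (59.8%), beside 1.53%. Opposite calls, 1 copy higher and the other lower with a called difference, were rarer, with 48 forward-only and 7 reverse-only members, beside 1.44% and 0.174% of all sequences. In 2 reverse-only members, Seq_16333 and Seq_37013, the copy that had been active in replicate 1 was called lower. The reverse copy of Seq_16333 had S of 0.65 in replicate 1 and -1.15 and -0.90 in replicates 2 and 3. That of Seq_37013 went from 0.80 to -0.89 and -1.12. Both resembled sequences low in both orientations in the replicates that did not choose them.

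Applying the same rule to replicate 2 alone gave 295 forward-only and 114 reverse-only sequences, and to replicate 3 alone 266 and 79. The forward-only lists of the 3 replicates shared 49 sequences. These were 18.3% of the replicate 1 list, 16.6% of the replicate 2 list and 18.4% of the replicate 3 list. Of the replicate 1 members, 84 (31.3%) met the forward-only rule in replicate 2 and 82 (30.6%) in replicate 3, beside 0.462% and 0.417% of all sequences with enough DNA. The rule was met in neither replicate by 151 members (56.3%). Yet 106 of those 151 were called forward by edgeR, beside 16.4% of all sequences tested. A called difference between orientations was thus often present without S passing both thresholds. For the reverse-only rule, 20 members (20.4%) met it in each of replicates 2 and 3, beside 0.179% and 0.124%. It was met in both by 9 members and in neither by 67 (68.4%). Of the 66 tested among the latter, 34 were called reverse by edgeR, beside 4.83% of all sequences tested. With TMM-scaled values in place of library totals, 17 forward-only and 3 reverse-only members met the rule in both replicates, against 49 and 9.

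Meeting the rule in replicates 2 and 3 fixes a gap of at least 1 in each, so the differences of these 49 and 9 members there, 1.13 to 2.25 for the forward-only ones, are a description and carry no test. The 9 reverse-only sequences that did so were Seq_15360, Seq_19351, Seq_20291, Seq_27216, Seq_38225, Seq_45325, Seq_55255, Seq_58376 and Seq_64279. Seq_15360, the lowest numbered of them, had 431 forward RNA counts on 211 DNA counts in replicate 2 and 414 on 190 in replicate 3. Its reverse copy had 1359 RNA counts on 284 DNA counts and 1496 on 308.

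Forward-only Seq_20723 had the largest difference of its class among members with 20 or more barcodes in each copy. Its forward copy had 1332 RNA counts on 170 DNA counts in replicate 2 and 1521 on 163 in replicate 3. Its reverse copy had 295 on 164 and 359 on 199. From a like amount of DNA, the forward copy gave several times the RNA of the reverse copy in both replicates. S was 1.32 and 1.59 forward and -0.81 and -0.78 reverse, and the difference was 2.25 (SE 0.22, edgeR adjusted p = 8.18e-09). Each copy of Seq_20723 was carried by 58 barcodes.

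Seq_23739 had the brightest forward copy among the 10 forward-only members with the largest differences, with S of 1.74 in replicate 2 and 1.63 in replicate 3. Its reverse S was -0.51 and -0.38. The difference was 2.13 (SE 0.18, edgeR adjusted p = 1.23e-09), with 60 forward and 84 reverse barcodes. The copies of Seq_23739 did not overlap in S, and its reverse copy was close to the library's median. Seq_61036 had forward S of 0.98 and 1.35 and reverse S of -0.54 and -1.29. Its difference was 2.11 (SE 0.30), and its 2 replicates spread more than those of Seq_23739. Seq_45336, the best covered of the 10 with 138 forward and 144 reverse barcodes, had forward S of 1.30 and 0.97 and reverse S of -0.93 and -0.95. Its low copy lay below the library's median in both replicates, and its difference was 2.06 (SE 0.17).

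The next members by size showed how differently a large gap can be made up. Seq_27554 had reverse S of -1.69 and -1.17, the former the lowest of the 10 in replicate 2, beside a forward S of 0.80 and 0.32, and its difference of 1.99 had the largest error (SE 0.38). Seq_41247 likewise had a forward copy of modest activity, 0.74 and 0.56, and a reverse copy at -1.04 and -1.49. In both, more of the gap came from a copy below the library's median than in Seq_23739. Seq_41387 had forward S of 0.68 and 1.18 and reverse S of -1.14 and -0.84. Seq_58521 had 0.72 and 0.79 forward and -1.32 and -0.996 reverse. Both resembled Seq_41247 in that the reverse copy lay below the median of all copies. Seq_22716 had 1.37 and 1.02 forward and -0.87 and -0.52 reverse. Differences in these 5 members ran from 1.88 in Seq_22716 to 1.99 in Seq_27554.

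Among reverse-only members Seq_45325 stood first. Its reverse copy had 5203 RNA counts on 381 DNA counts in replicate 2 and 4211 on 406 in replicate 3. Its forward copy had 364 on 154 and 320 on 138. S was 2.12 and 1.74 reverse and -0.41 and -0.42 forward. The forward copy thus lay about at the median of all copies, while the reverse copy exceeded the median of sequences active in both orientations. The difference was -2.35 (SE 0.18, edgeR adjusted p = 2.22e-10), with 73 forward and 75 reverse barcodes.

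The next reverse-only members were smaller. Seq_27216 had reverse S of 1.00 and 1.23 and forward S of -0.63 and -0.62, and its difference was -1.74 (SE 0.18). Seq_55255 had 0.87 and 0.91 reverse and -0.82 and -0.78 forward, the closest replicates of the class's 10 largest. Seq_38225 had 1.18 and 0.94 reverse and -0.75 and -0.46 forward. These 3 resembled one another, with a moderately active reverse copy and a forward copy below the library's median. Seq_55760 had 1.02 and 0.83 reverse, with a forward copy that moved from -1.01 to -0.34. Seq_19700 had 1.30 and 1.15 reverse and -0.36 and -0.48 forward. Seq_32458 had 1.45 and 0.68 reverse and -0.35 and -0.71 forward. In each of the 3, reverse was above forward in both replicates, and the reverse copy of Seq_32458 varied most between replicates. The last of the 10, Seq_58077, had 0.98 and 1.05 reverse and -0.73 and -0.38 forward, a difference of -1.57 (SE 0.17) on 145 and 161 barcodes.

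At the other end, some members showed little or no difference in replicates 2 and 3. The 5 forward-only members with the smallest values were Seq_56187, Seq_43673, Seq_54047, Seq_9905 and Seq_11650, with differences of -0.20 to 0.16, none of them called. Seq_56187 had forward S of -0.23 and 0.12 and reverse S of 0.04 and 0.24. Seq_43673 had forward S of -0.90 and -0.83 although it had 0.78 in replicate 1, and reverse S of -0.65 and -0.75. In these replicates it lay low in both orientations. For Seq_11650, whose copies were carried by 107 and 108 barcodes, forward S was -0.35 and 0.19 and reverse S -0.13 and -0.36. The loss of the pattern was therefore not limited to copies with few barcodes.

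Of the 5 reverse-only members with the smallest or most reversed differences, Seq_13214 was called the other way. Its forward copy had S of -0.48 in replicate 1 and 1.48 and 0.43 in replicates 2 and 3. Its reverse copy went from 0.66 to -0.30 and 0.01. Its forward DNA count was 118 in replicate 1 but 36 and 48 in the others, and the difference was 1.12 (SE 0.35, edgeR adjusted p = 0.0216). With all 3 replicates in the test, which include the one that chose it, the difference was 0.24 and was not called (edgeR adjusted p = 0.608). Seq_11597, Seq_20715 and Seq_26507 instead had S above 0 in both copies. In Seq_26507 forward S was 0.98 and 0.99 and reverse S 0.68 and 1.17, against -0.51 and 1.15 in replicate 1. Here the copy that had looked low was the one that changed. Seq_49213 had both copies low, at -0.74 and -0.45 forward and -0.40 and -0.93 reverse.

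The untested Seq_25337 shows the same with fewer DNA counts. Its forward copy had 51 DNA counts in replicate 1, and 7 and 9 in replicates 2 and 3, while its forward RNA counts were 54, 69 and 95. Forward S was therefore -1.29 in replicate 1 and 1.65 and 1.76 in the other replicates. The reverse copy of Seq_25337, at 0.63 in replicate 1, was near 0 in replicates 2 and 3 (0.02 and -0.04).

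DNA and RNA counts both moved with the choice, and since replicate 1 made the choice these shifts are a description. The replicate 1 DNA share of the active copy was below its mean share in replicates 2 and 3 in 189 of 268 forward-only members, with a median of -0.12 on the log2 scale. That of the other copy was above it in 183, with a median of 0.08. Among reverse-only members the active copy's share was lower in 68 of 98, by the same median of -0.12. The other copy's share was higher in 79, with a median of 0.17. Over all sequences with enough DNA these medians were 0.0073 for forward and -0.0026 for reverse copies. RNA shares moved the other way, with medians of 0.075 in the active and -0.038 in the other copy of forward-only members. In reverse-only members they were 0.085 and -0.11. How much of the gap in replicate 1 these shifts of DNA and RNA made up was not tested.

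The rule did not use the number of barcodes. The replicates share the barcodes of a copy, whereas the 2 orientations, and sequences of neighbouring number, carry different barcodes. Forward-only members had a median of 76 barcodes in the active copy and 82.5 in the other, beside 84 forward and 92 reverse over all sequences with enough DNA. Reverse-only members had 70.5 in the active and 61 in the other copy. In 14 forward-only members (5.22%) and 8 reverse-only members (8.16%) a copy had fewer than 20 barcodes, beside 1.87% of all such sequences. Members were thus drawn more often from thinly covered sequences.

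Forward-only members made up 1.15% of sequences whose less covered copy had under 20 barcodes, 0.540% at 20 to 49, 0.413% at 50 to 99 and 0.304% at 100 or more. In the same order, 42.9%, 61.7%, 89.8% and 93.9% of those tested were called by edgeR in replicates 2 and 3. Well covered sequences met the rule less often, and those that met it were called more often. The share called among all sequences at each level of cover was not computed. Whether the rise in calls was particular to members was therefore not tested. Reverse-only members made up 0.658%, 0.288%, 0.132% and 0.0782% in the same order. Of these, 71.4%, 37.5%, 78.0% and 94.1% were called, the first from only 7 members tested. The least covered forward-only member, Seq_38955, had 11 forward and 4 reverse barcodes and was not called, with a difference of 0.66 (SE 0.30). The least covered reverse-only member, Seq_20291, rested on 1 forward and 3 reverse barcodes and was called at -2.18 (SE 0.29, edgeR adjusted p = 1.74e-05). With so few barcodes, the element and its barcode cannot be told apart in Seq_20291.

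Set beside sequences with S of 0.6 or more in both copies of replicate 1, which numbered 8335, the active copies of members were less active. Forward S in those had a median of 1.19 in replicate 2 and 1.14 in replicate 3, and reverse S 1.19 and 1.12. Members' active copies, at 0.62 and 0.59 forward, lay below these. No test was made, since replicate 1 chose all of these groups. The median orientation difference of sequences active in both was 0.01, and 10.2% were called forward and 9.50% reverse. Among the 28084 sequences low in both, 12.9% were called forward and 0.965% reverse. The library's excess of forward calls was thus seen among sequences that were not active in both orientations.

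The labels do not say how the sequences were numbered, yet members were spread unevenly over the numbers. Up to number 31000, forward-only members made up 0.780% to 2.02% of the forward copies active in replicate 1, over the 4 ranges examined. Above 31000 and up to 56000 they made up 7.66%, and above 56000 and up to 66000 7.35%. Reverse-only members likewise made up 0.183% to 1.06% of active reverse copies up to 31000, and 3.60% and 3.44% in those later ranges. From there to 68000 the shares were 4.38% forward-only and 0.348% reverse-only, the latter from 1 member. Above 68000 they were 0.229% and 0.211%, from 1 member each. That forward-only share lay below those of the early ranges, and the reverse-only share lay among them. Active copies were fewer in the 2 ranges between 31000 and 66000. There, 2.44% and 2.36% of sequences with enough DNA were active in both orientations, against 17.1% to 39.4% up to 31000. As a share of all sequences with enough DNA, forward-only members stood at 0.377% to 0.515% up to 31000 and at 0.363% and 0.322% in the 2 ranges that follow. Their share of all sequences was highest from 66000 to 68000, at 0.756%, and lowest above 68000, at 0.0864%.

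Above 31000, sequences numbered next to a member differed in the member's direction more often than those farther away, and no test of this was made. Of 249 sequences tested 1 number away from a forward-only member above 31000, 40.2% were called forward, with a median difference of 0.46. At 10 numbers away it was 12.6%, with a median of 0.19, and at 100 numbers 19.9%. Up to 31000, 17.3% of the 266 nearest neighbours were called forward, which is near the 16.4% of all sequences tested. For reverse-only members above 31000, 22.3% of 94 nearest neighbours were called reverse, against 3.19% at 10 numbers away. This came mainly from the 12 members between 56000 and 66000, where 8 of 12 preceding and 7 of 12 following sequences were called reverse. Between 31000 and 56000 it was 4 of 33 and 3 of 34. For forward-only members it was 25 of 84 and 24 of 82 between 31000 and 56000, and 17 of 31 and 22 of 30 between 56000 and 66000. Members that stand close together share neighbours or are each other's, so these counts are not of separate cases. Up to 31000, 8.60% of 93 nearest neighbours of reverse-only members were called reverse, and 9.47% at 10 numbers away. Of all sequences tested in the ranges up to 31000, 6.28% to 7.68% were called reverse. Neighbours that were not members themselves gave 36.9% forward and 18.9% reverse above 31000.

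The stretches that follow were chosen after their values were seen. Above 56000 and up to 66000, 19 of 28 called forward-only members (67.9%) and 9 of 11 called reverse-only members (81.8%) stood in runs of 3 or more listed sequences all called in the same direction. The longest such run held 11 sequences. Of called sequences in that range that were not members, 33.1% forward and 29.3% reverse stood in such runs. Above 66000 and up to 68000, 7 of 12 called forward-only members stood in such runs, beside 35.9% of called sequences that were not members. Up to 31000 it was 5 of 112 called forward-only and 0 of 37 called reverse-only members, beside 7.23% and 1.70% of non-members. From 31000 to 56000 it was 12 of 67 and 0 of 16, beside 13.9% and 2.49%. In these lower ranges the members' counts lay near those of other called sequences.

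Above 56000 and up to 66000, the 2 classes mostly lay on opposite sides of more active sequences. In this range the mean activity of neighbours with later numbers was above that of neighbours with earlier numbers in 22 of 29 forward-only members. The medians were -0.35 before and 0.10 after, as log2 RNA over DNA. For reverse-only members the earlier side was the more active in 11 of 12, with medians of 0.92 before and -0.23 after. Members that stand close together share neighbours here too, so these counts are not of separate cases. Up to 31000 the later side was the higher in 73 of 137 forward-only and 27 of 50 reverse-only members. Between 31000 and 56000 it was the higher in 47 of 85 and 16 of 34. By these counts no side stood out in either range.

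A stretch from Seq_64258 to Seq_64280 holds both classes and shows this order. Seq_64257, just before it, was low in both orientations, with S of -1.29 and -1.25 forward and -1.45 and -1.37 reverse. The forward-only members Seq_64259, Seq_64260 and Seq_64261 followed. Seq_64259 had forward S of 1.49 and 1.13 and reverse S of -0.45 and -0.79, with a difference of 1.91 (SE 0.19, edgeR adjusted p = 2.37e-08). In Seq_64260 the forward S was 1.20 and 1.06 and the reverse S -0.48 and -0.71. Seq_64261 had 1.83 and 0.94 forward and -0.25 and -0.57 reverse. Over 2 numbers the forward copy had thus gone from low to active while the reverse copy stayed below 0. The reverse copy became active 3 numbers later. Seq_64264 had S of 1.00 and 0.66 forward and 1.12 and 0.93 reverse, and Seq_64267 and Seq_64268 were also active both ways.

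From Seq_64269 to Seq_64281 the reverse copy had the higher S in both replicates. The reverse-only Seq_64277 had reverse S of 0.67 and 0.63 and forward S of -0.59 and -0.19, a difference of -1.04 (SE 0.17). Seq_64279 had 0.90 and 0.96 reverse and -0.79 and -0.63 forward, a difference of -1.63 (SE 0.18, edgeR adjusted p = 1.27e-07). By Seq_64282 neither copy was active, with -0.17 and 0.18 forward and -0.12 and -0.06 reverse. In numbering order the forward copy thus reached and lost its activity at lower numbers than the reverse copy.

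A stretch around Seq_58371 held only the later side of this order. From Seq_58361 to Seq_58369 all 9 sequences were active in both orientations and none was called. In Seq_58369 S was 1.44 and 1.72 forward and 1.61 and 1.59 reverse. The forward copy then dropped, and from Seq_58370 to Seq_58376 all 7 sequences were called reverse. Among them, the reverse-only Seq_58371 had reverse S of 0.52 and 0.81 and forward S of -0.54 and -0.66. Seq_58375 had 1.44 and 0.78 reverse and -0.50 and -0.34 forward. In Seq_58376 S was 1.06 and 0.62 reverse and -0.73 and -0.85 forward, with a difference of -1.61 (SE 0.22, edgeR adjusted p = 7.68e-06). The reverse copy was lost at the next number. Seq_58377 had -0.84 and -0.75 reverse and -0.999 and -0.74 forward.

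The stretch from Seq_66596 to Seq_66607 held only the earlier side. All 11 sequences listed there in both orientations were called forward, with differences of 0.66 to 1.55. Among them were 5 forward-only members, Seq_66600, Seq_66601, Seq_66602, Seq_66603 and Seq_66606. Seq_66600 had forward S of 0.94 and 0.78 and reverse S of -0.76 and -0.59. Seq_66603 had 1.13 and 0.70 forward and -0.54 and -0.73 reverse. In both, the forward copy was active while the reverse copy lay below the library's median. The next numbers were active both ways. Seq_66608 had 1.60 and 1.12 forward and 1.36 and 1.19 reverse, and its difference of 0.08 was not called. The numbers before this stretch were not uniformly low. Seq_66579 was active both ways, with 1.49 and 1.63 forward and 1.34 and 1.42 reverse. Seq_66594 was called reverse, with a difference of -0.47 (SE 0.14, edgeR adjusted p = 0.0161).

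Members of opposite class lay within 5 numbers of each other in 3 places. Forward-only Seq_27213 had forward S of 0.99 and 0.88 and reverse S of -0.50 and -0.49, a difference of 1.43 (SE 0.22). The reverse-only Seq_27216, described above, lay 3 numbers on and was called the other way. Reverse-only Seq_33943 had a difference of -1.45 (SE 0.29) and forward-only Seq_33946, also 3 numbers on, one of 1.16 (SE 0.16). In these 2 pairs, both members were called in the direction of their class. In the third pair, forward-only Seq_27676 was called with a difference of 0.85 (SE 0.30, edgeR adjusted p = 0.0413), while reverse-only Seq_27680 was not, at -0.41 (SE 0.29).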

How the data were processed

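The files hold counts per copy of each element in 3 DNA and 3 RNA libraries of HepG2 cells, as deposited by the authors, and a plasmid table pairing 12452483 barcodes of 15 bases with elements. Neither labels nor headers say how barcodes became counts. BWA 0.7.17 and hg38 appear in the submitters' processing notes without a role. Copies were joined by number and grouped by the replicate and molecule in the labels. The members and lists were chosen with earlier results of these data known.

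The rule used replicate 1 on library totals. Replicates 2 and 3 were tested with edgeR 4.0.16 in R 4.3.3 (TMM, robust quasi-likelihood F-test), on the whole table, for 66808 sequences with 10 or more counts in both DNA libraries in both copies, or 134507 copies. The fit was tested on simulated data. Alternatives used DESeq2 1.42.0, limma 3.58.1, other scalings, filters and rules. Member copies had medians of 140 to 252 DNA counts in replicates 2 and 3. Standard errors cover the spread between libraries.

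Named for each class were the 10 called members with the largest difference and 20 or more barcodes per copy, the 5 smallest, those nearest the thresholds, the least covered, and clusters of 3 or more members numbered 5 or fewer apart. A few others were chosen after their values were seen: those called lower or untested, the smallest numbered of the 9 that kept the rule, neighbours within stretches and pairs of opposite class.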

Additional observations from a re-analysis of the deposited data

How the results depend on the processing

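The call counts of both classes, 220 forward-only and 65 reverse-only, moved by less than 1.5 times with other scalings, DESeq2, limma, other DNA filters, the barcode minimum and the 3 settings named next. Without DNA replicate 3 they were 198 and 55, and tested against the median difference 191 and 70. The counts reached 260 and 84 with all 3 replicates, which include the one that chose the members. Asking for at least 2-fold left 43 reverse-only calls. Stricter rules chose fewer members: with 200 or more DNA counts 138 of 144 forward-only and 43 of 48 reverse-only members were called, and with S of 0.8 and -0.6, 40 of 47 and 15 of 17. Rescaling by TMM before applying the rule left 17 forward-only and 3 reverse-only members that met it in both other replicates. With library totals alone, the other copy was called lower in 193 forward-only and 45 reverse-only members and higher in 0 and 5. With the replicate block, 222 forward-only and 65 reverse-only members were called. Deviations of same-numbered DNA and RNA libraries correlated at 0.0345, 0.0459 and 0.0516. Each DNA library correlated best with the RNA library of its own number, and the highest value with another number was -0.00957. Correlations this small do not settle whether samples of the same number belong together, and the main test did not pair them. Without replicate 2 or replicate 3, which leaves no residual degrees of freedom, 260 to 264 forward-only and 85 to 92 reverse-only members kept their direction. Among the 41 members named by the rule, the sign turned in a tested setting only in members that were not called. With all 3 replicates Seq_56187 was at 0.42, Seq_43673 at 0.77, Seq_54047 at 0.41, Seq_9905 at 0.42, Seq_11597 at -0.29, Seq_20715 at -0.25, Seq_49213 at -0.47 and Seq_26507 at -0.60. Leaving out replicate 2, replicate 3 or DNA replicate 3 in turn gave ranges of -0.24 to 0.095 for Seq_43673, -0.48 to 0.15 for Seq_54047, -0.44 to 0.33 for Seq_9905, -0.22 to 0.56 for Seq_11650 and -0.34 to 0.49 for Seq_49213. With limma on log2(CPM + 1), Seq_11597 was at -0.021, Seq_20715 at -0.15 and Seq_26507 at -0.26. The cause was not tested. The 2 replicates, shared barcodes and DNA counts near 50 limit what single members show.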
